A study of Homo sapiens with 121 samples.

Results

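The mitochondrial ribosomal protein genes were taken as every gene of the deposited expression table whose symbol begins with MRPL or MRPS and a digit and holds no hyphen. This rule found 80 of 25610 genes. Of these, 3 carry pseudogene symbols (MRPL42P5, MRPL45P2 and MRPS31P5), and the 77 others were split by symbol into 48 genes of the large subunit (MRPL) and 29 of the small subunit (MRPS). The values come from 121 single cells of WA26, a human embryonic stem cell (hESC) line kept undifferentiated without feeder cells in E8 medium on Matrigel. In each cell, poly(A) RNA was sequenced after a Smart-seq2 amplification, and telomere length was measured on the genomic DNA of the same cell as the T/R ratio, the qPCR signal of telomere repeats over that of Alu repeats. Cells with a T/R ratio above 1 formed the long telomere group (n = 81), those between 0.4 and 1 the medium group (n = 25) and those below 0.4 the short group (n = 15). All groups were untreated cells of 1 line, and no culture, plate or batch is named for any cell, so each group stands for 1 sample, cells are not replicates of it, and differences are given with the SD across cells and without a p-value. Expression is in TPM, a transcript abundance scaled for transcript length and to a fixed total in each cell, from which the reads behind a value cannot be recovered.

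The mitochondrial ribosome sits in the matrix of the organelle and makes the few proteins encoded by mitochondrial DNA, which are core subunits of the respiratory chain and of ATP synthase. Its RNAs are transcribed from mitochondrial DNA, whereas all of its proteins are encoded in the nucleus, made by cytosolic ribosomes and imported. The small subunit binds the mRNA and holds the decoding site, and the large subunit holds the peptidyl transferase centre and the exit tunnel, which faces the inner membrane. Many of these proteins have a counterpart in bacterial ribosomes, and others are found in mitochondria alone. Symbol and place differ for a few: MRPS30 and MRPS18A are part of the large subunit in known structures, and MRPS36 is now placed in the 2-oxoglutarate dehydrogenase complex. Human pluripotent cells rely strongly on glycolysis and keep mitochondria that are less mature than those of differentiated cells.

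Sequences upstream of the transcription start, as given by RefSeq for GRCh38.p14, are shown for the member of highest level (MRPL51), for the members that were higher in long telomere cells by the largest margins (MRPL24 and MRPL48) and for those that were lower by the largest margins (MRPL41 and MRPL36). Each covers the 250 bases before the start, 5′ to 3′ on the strand of the gene. Capitals mark CCGGAAG, a core site of ETS factors such as GABPA, and AAGATGGC, a core site of YY1, on either strand. GCATGCGC, a core site of NRF1, was searched as well and is in none of the 5 windows. MRPL51 lies on the reverse strand at chr12:6493263-6493512 and MRPL24 on the reverse strand at chr1:156741089-156741338. MRPL48 lies on the forward strand at chr11:73787624-73787873, MRPL41 on the forward strand at chr9:137551629-137551878 and MRPL36 on the reverse strand at chr5:1799838-1800087.
MRPL51: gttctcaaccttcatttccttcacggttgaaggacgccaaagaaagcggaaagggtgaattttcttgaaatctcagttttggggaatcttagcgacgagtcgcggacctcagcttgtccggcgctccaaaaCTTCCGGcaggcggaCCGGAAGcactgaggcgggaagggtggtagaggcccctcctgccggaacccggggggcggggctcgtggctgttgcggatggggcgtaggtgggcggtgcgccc
MRPL24: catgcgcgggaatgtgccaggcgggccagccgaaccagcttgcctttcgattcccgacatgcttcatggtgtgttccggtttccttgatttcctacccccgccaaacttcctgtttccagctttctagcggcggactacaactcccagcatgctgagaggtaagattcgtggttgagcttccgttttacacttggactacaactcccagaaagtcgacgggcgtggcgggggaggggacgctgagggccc
MRPL48: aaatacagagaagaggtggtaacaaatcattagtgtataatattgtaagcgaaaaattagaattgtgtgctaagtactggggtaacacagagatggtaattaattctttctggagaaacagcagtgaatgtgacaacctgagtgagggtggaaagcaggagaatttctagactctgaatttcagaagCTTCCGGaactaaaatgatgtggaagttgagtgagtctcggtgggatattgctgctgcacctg
MRPL41: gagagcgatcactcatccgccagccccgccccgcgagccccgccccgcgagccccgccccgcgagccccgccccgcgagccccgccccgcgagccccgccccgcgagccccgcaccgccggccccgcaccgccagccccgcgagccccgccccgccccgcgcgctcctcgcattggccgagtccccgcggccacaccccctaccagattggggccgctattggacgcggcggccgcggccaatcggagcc
MRPL36: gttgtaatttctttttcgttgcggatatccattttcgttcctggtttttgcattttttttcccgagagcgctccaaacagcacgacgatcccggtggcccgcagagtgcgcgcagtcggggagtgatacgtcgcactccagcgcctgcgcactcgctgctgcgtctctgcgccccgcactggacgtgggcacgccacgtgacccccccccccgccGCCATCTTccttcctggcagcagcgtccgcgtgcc

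The window of MRPL51 held the ETS core on both strands, beginning 119 and 104 bases before the start. MRPL48 held it once, 63 bases before the start, and MRPL36 held the YY1 core 35 bases before its start. The windows of MRPL24 and MRPL41 held neither core. Base composition differed widely, from 40% G and C in MRPL48 to 82.8% in MRPL41, whose window begins with repeats rich in guanine and cytosine. The table had entries for 68 of the 77 members, with 84 start sites. Without an entry were MRPL2, MRPL10, MRPL13, MRPL15, MRPL21, MRPL23, MRPL35, MRPS28 and MRPS36. Over those 84 windows, CCGGAAG was found on either strand in 26 (31%), against 8.52% of all 35116 promoter windows of the same length. AAGATGGC was found in 7 (8.33%, against 1.36%), GCATGCGC in 6 (7.14%, against 2.63%), GGGCGG, a core site of SP factors, in 46 (54.8%, against 42.6%) and TATAAA, the core of the TATA box, in 2 (2.38%, against 10.7%). No matches of different motifs overlapped in a member window. By gene, CCGGAAG was present for 14 of 41 large subunit genes and 10 of 27 small subunit genes. The 24 members with this core had a median of mean TPM of 153 and the 44 without it of 146, and their median long minus short differences were 1.37 and 1.48 on the log2 scale, so both measures were close. These matches describe the letters in the windows and say nothing of binding.

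MRPL46 and MRPS11 lie head to head. In the GRCh37 annotation their gene bodies on chromosome 15 are separated by 62 bases. The RefSeq starts used here, the first listed for each gene in GRCh38.p14, are separated by 319 bases. These starts are farther apart than the gene bodies, and the 62-base gap was not placed in GRCh38.p14. The stretch below therefore cannot be read as the sequence between the gene bodies, and it can lie within an annotated gene. The upstream windows of the pair share 181 bases, chr15:88467458-88467638, shown on the forward strand. None of the 5 motifs was found in this stretch, which holds for the stretch only.
MRPL46 and MRPS11: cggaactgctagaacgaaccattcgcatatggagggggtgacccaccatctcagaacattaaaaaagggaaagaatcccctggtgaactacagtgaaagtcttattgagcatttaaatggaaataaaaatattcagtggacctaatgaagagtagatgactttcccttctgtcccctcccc

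Across cells, the levels of this pair were weakly related, with a Pearson r of log2(TPM + 1) of 0.12 and a Spearman rho of 0.141 over the 121 cells. The medians over all pairs of members were 0.177 and 0.1. Within gene-rich cells the pair had an r of 0.153 and all pairs a median of 0.098, and within gene-poor cells these were 0.201 and 0.145. The group values also differed: MRPS11 was higher in long than in short telomere cells by 2.89 on the log2 scale, and MRPL46 by 0.36.

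All 77 genes without a pseudogene symbol were expressed. Every one had a mean TPM of at least 10, a level reached by 6213 of the 25610 genes, and 61 were detected (TPM above 1) in at least 90% of the cells. Mean TPM ran from 17.8 for MRPL49 to 970 for MRPL51, a range of 54.6-fold, with 26 genes below 100, 46 between 100 and 400 and 5 above 400. The 5 highest large subunit genes were MRPL51, a protein found in mitochondrial ribosomes alone (970), MRPL13 (521), MRPL14 (474), MRPL20 (454) and MRPL27 (410), the last 4 of them counterparts of bacterial proteins. MRPL51 ranked 189 among all genes by mean TPM. In the small subunit the 5 highest were MRPS21 (358), MRPS15 (343), MRPS18C (328), MRPS6 (316) and MRPS7 (303), all of bacterial type. The 5 lowest of the large subunit were MRPL49 (17.8), MRPL19 (23.7), MRPL30 (35), MRPL38 (43) and MRPL4 (49), and the 5 lowest of the small subunit were MRPS25 (22.7), MRPS27 (44.7), MRPS11 (51.8), MRPS30 (56) and MRPS31 (91.4). The subunits were close in level, with a median of mean TPM of 159 for the large and 148 for the small. The spread across cells was wider than the steps between neighbours at the top of this order: MRPL51 had an SD of 614 TPM around a mean of 918 in the long group. MRPL51 was detected in every cell, and so were MRPL13, MRPL20, MRPL57, MRPS7 and MRPS18C. Members of higher level had shorter transcripts, with a Pearson r of -0.472 between log2 transcript length and log2 mean TPM across the 77 genes. The same relation held across 5636 genes with a known length (-0.46), and genes are not independent points in it.

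**Figure D1:**
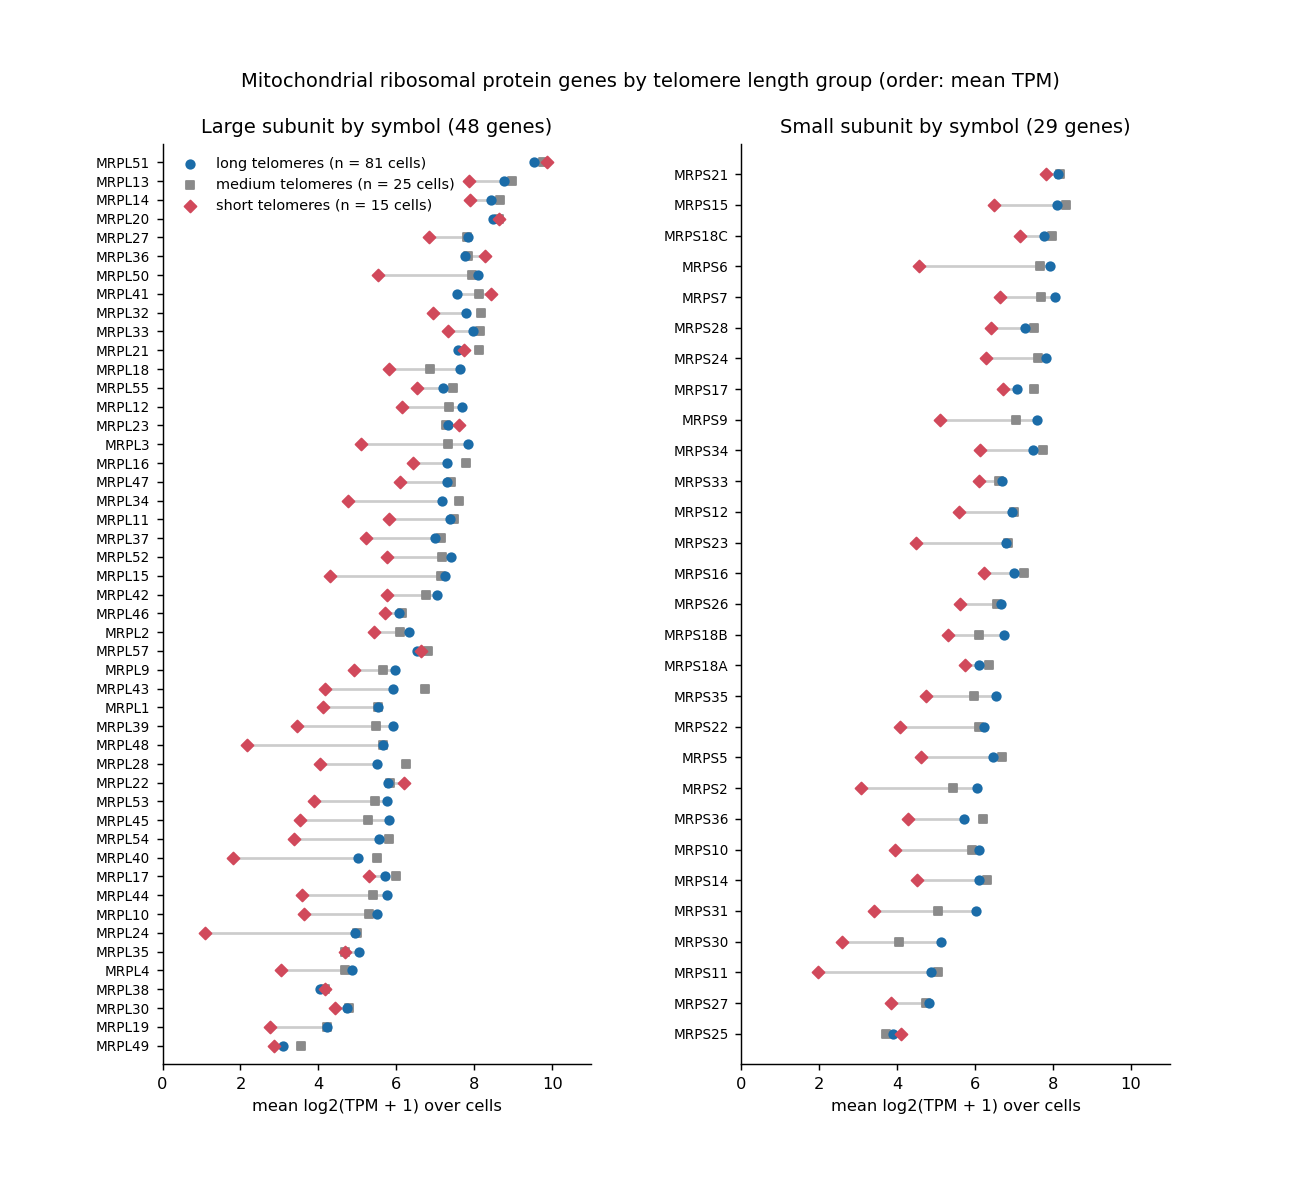
Mean log2(TPM + 1) over cells of each of the 77 genes in the long, medium and short telomere groups, with the large subunit on the left and the small subunit on the right, ordered by mean TPM over all cells. Grey lines join the long and short means: 67 of 77 genes lie higher in the long group, as do 90.9% of 6213 genes. MRPL24 has the longest line (4.93 against 1.08). Among genes with the higher mean in the short group, MRPL41 has the longest (8.43 against 7.55).

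Pseudogene symbols were low. MRPL42P5 was detected in 3 of 81 long, 1 of 25 medium and 0 of 15 short telomere cells. MRPL45P2 had a mean TPM of 3.3 and MRPS31P5 of 3.97. These 3 were left out of sums, medians and counts below. For 36 of the 77 genes the annotation names pseudogenes, 80 in all (8 of them for MRPS21), and 41 have exons that overlap those of another gene, 18 on the same strand. Whether the deposited values rest on the HTSeq counts of the methods, and so how reads shared with a copy or neighbour and the strand were handled, is not clear, and their part in the values was not tested.

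The number of genes detected in a cell differed between groups and moved with most of the results that follow. It ran from 2030 to 11515 with a median of 8928. Cells with more than 8000 detected genes are called gene-rich here (51 of the long, 14 of the medium and 3 of the short group) and all others gene-poor (30, 11 and 12). Undifferentiated hESC markers were present throughout, with POU5F1 detected in all 121 cells and PRDM14, the least frequent of 10, in 103. Their summed TPM was lower in the short group, with medians of 3519 (long), 3124 (medium) and 1591 (short). Of the 10, NANOG and TDGF1 had the largest long minus short differences, 3.21 and 3.09 on the log2 scale. ZFP42 (2.26), DNMT3B (1.95) and PRDM14 (1.62) also lay above the median of 1.40 over the 6213 genes. Below it lay SOX2 (1.25), DPPA4 (1.23), POU5F1 (0.93), LIN28A (0.29) and L1TD1 (0.22). In gene-rich cells the 10 ran from -0.22 (ZFP42) to 1.37 (PRDM14), with NANOG at 0.69, TDGF1 at 0.36 and LIN28A at -0.19. The part of these marker differences in the results below was not tested. Markers of early lineages were nearly absent: of 12, GATA6 and HAND1 were detected in no cell, and the medians of the list's summed TPM were 5.1 (long), 3.77 (medium) and 7.96 (short). The most frequent of them, MIXL1, was detected in 46 cells.

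To see whether the member genes differed with telomere length, their mean log2(TPM + 1) was compared between long and short telomere cells. It was higher in the long group for 67 of 77 genes, with a median difference of 1.42, and 47 genes were higher by at least 1 on the log2 scale, or 2-fold. On this scale the members were close to the table as a whole: the median over the 6213 genes was 1.40, and 66.5% of them were higher by at least 1, against 61% of the members. None of the 77 was lower in the long group by at least 1, where 1.71% of all genes were. The standing against all genes depended on the scale: with a pseudocount of 10 the medians were 0.82 for members and 0.60 for all genes, and by medians over cells 0.74 and 2.02. Large subunit genes had a median difference of 1.25 (27 of 48 past 1) and small subunit genes of 1.43 (20 of 29 past 1). The difference exceeded the SD across cells of both groups for 5 members: MRPL15, MRPL24, MRPL40, MRPL48 and MRPS11. All 5 were higher in the long group, as were 9.83% of all genes by this measure, and 0.0322% were lower. Between long and medium telomere cells, the median difference was -0.05 (0.14 for all genes), and 1 member, MRPS30, was past 1 (1.09), where 1.75% of all genes were. No member was lower by at least 1, against 0.66% of all genes.

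MRPL24, a counterpart of a bacterial large subunit protein, differed most. Its TPM in long telomere cells ran from 0 to 383 with a median of 45.8, in medium from 0 to 618 with a median of 52.3, and in short from 0 to 141 with a median of 0. It was detected in 70 of 81 long, 21 of 25 medium and 3 of 15 short telomere cells. The difference of mean log2(TPM + 1) was 3.84 (4.93 ± 2.36, SD, n = 81, against 1.08 ± 2.32, n = 15). The ranges overlapped, and 86.2% of long-short pairs were higher on the long side. MRPL48, found in mitochondrial ribosomes alone, ran from 0 to 639 with a median of 90.9 in long and from 0 to 188 with a median of 0.74 in short telomere cells, a difference of 3.51. MRPL40, also specific to mitochondria, ran from 0 to 593 with a median of 53.8 in long and from 0 to 70.7 with a median of 0 in short telomere cells, a difference of 3.20. In each of these genes, short telomere cells in which the gene was listed near 0 stood beside a few with levels in the range of the long group. Long telomere cells listed at 0 were found too.

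Small subunit genes showed the same form. MRPS6 ran from 0 to 815 TPM with a median of 357 in long, from 1.81 to 732 with a median of 288 in medium and from 0 to 678 with a median of 39.5 in short telomere cells, a difference of 3.33. MRPS2 ran from 0 to 334 with a median of 95.2 in long and from 0 to 303 with a median of 1.01 in short telomere cells, a difference of 2.99. Both proteins have bacterial counterparts. In the annotation, exons of SLC5A3 on the same strand overlap those of MRPS6.

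A few genes had a higher mean log2(TPM + 1) in short telomere cells, by less than 1 over all cells. By the difference of medians MRPL41 was past 1 (-1.34). MRPL41, a mitochondria-specific protein, ran from 0 to 868 TPM with a median of 209 in long, from 92 to 1603 with a median of 275 in medium and from 1.33 to 3192 with a median of 531 in short telomere cells. The difference of mean log2(TPM + 1) was -0.88 (7.55 ± 1.78, SD, n = 81, against 8.43 ± 2.54, n = 15), within the SD of either group. MRPL36, one of the smallest proteins of the ribosome, followed with -0.52, a median of 215 in long and of 356 in short telomere cells. MRPL22 (-0.41) and MRPL23 (-0.28), which line the region of the exit tunnel, and MRPL51 (-0.32) came next. Apart from MRPL22, with a mean TPM of 91.7, these were members of high level (250 to 970). Short telomere cells reached the highest single values of MRPL41 and MRPL36, 3192 and 2990 TPM, against 868 and 1606 in the long group.

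**Figure D2:**
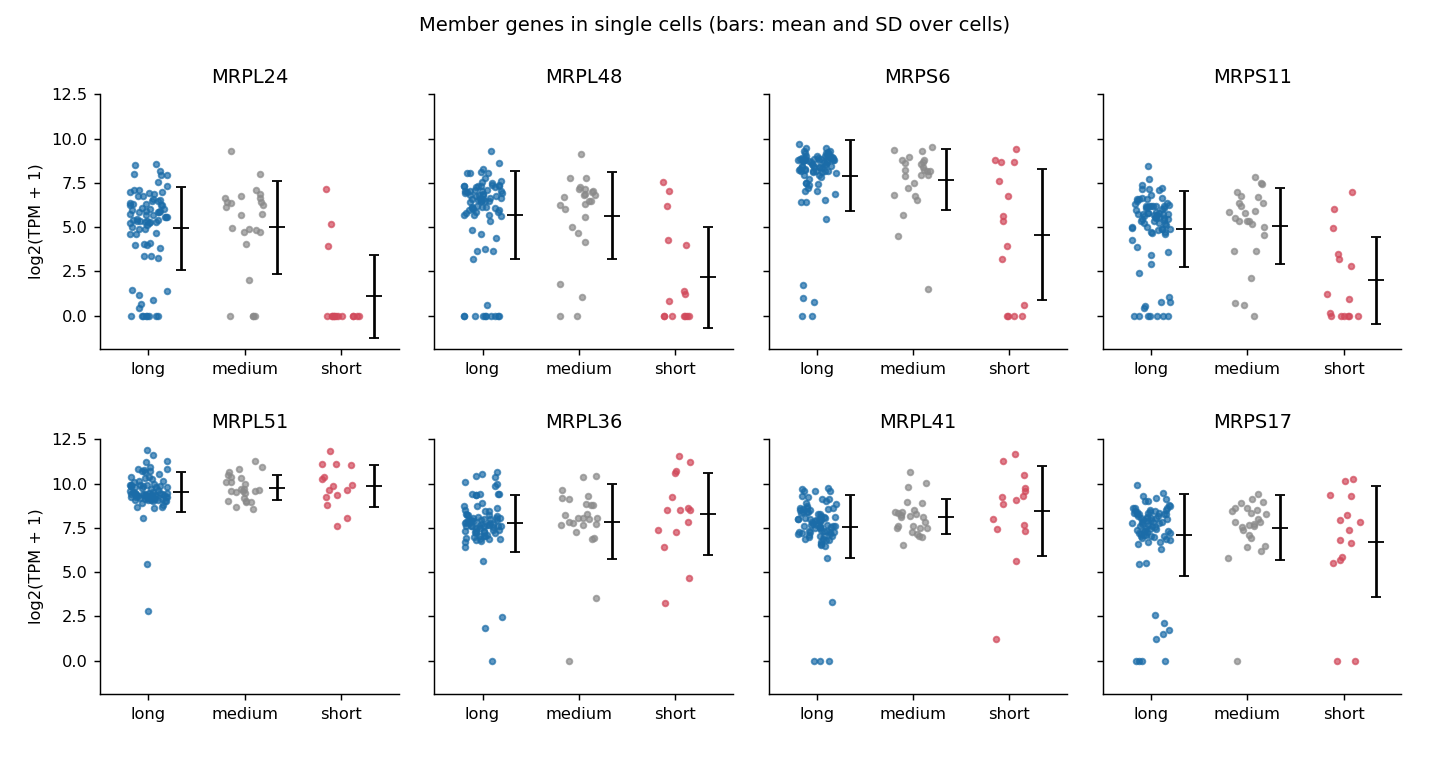
TPM of 8 members in each cell as log2(TPM + 1), by telomere length group (81 long, 25 medium and 15 short), with the mean and SD over cells as black bars. In MRPL24, 12 of the 15 short telomere cells lie below the detection limit, whereas MRPL51 was detected in all cells of each group and its short group mean (9.86) lies above its long group mean (9.54).

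Split by the number of detected genes, the median difference was near 0 in gene-rich cells. Among the gene-poor cells, 49 of 77 members (63.6%) were higher in long telomere cells by at least 1, against 51% of all genes, and the median was 1.41 against 1.03 for all genes. In the other direction MRPL41 was lower by 1.33, where 3.9% of all genes were lower by at least 1. MRPL15 had the largest difference there, 4.08, with medians of 234 TPM in long (n = 30) and 12 in short telomere cells (n = 12). Among the gene-rich cells, the median of the members was 0.06 and that of all genes 0.04, with 7 members higher by at least 1 (9.09%), against 12.7% of all genes, and none lower, against 6.94%. Large subunit genes had medians of 1.31 in gene-poor and 0.12 in gene-rich cells, and small subunit genes of 1.77 and -0.09. The gene-rich values rest on 3 short telomere cells. For MRPS6 these had 412, 449 and 678 TPM, against a median of 430 in the 51 long telomere cells. For MRPL24 they had 0, 34.8 and 141, against a median of 47.2. One and the same short telomere cell had 0 TPM of MRPL24, MRPL48 and MRPS11, whose gene-rich differences were 1.41, 1.73 and 1.87. MRPL27 had the largest, 2.44, with 0, 193 and 221 TPM in the 3 cells. The medium group, with 14 gene-rich cells, differed from the long group by at most 0.64 in any member.

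**Figure D3:**
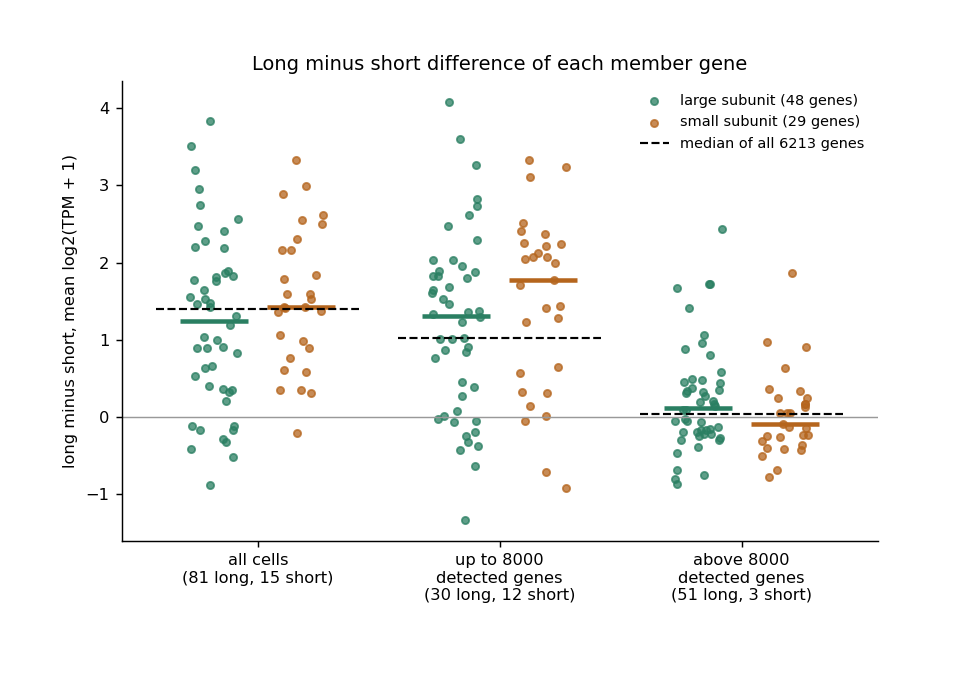
Long minus short difference of mean log2(TPM + 1) for each member (points, large subunit in green and small subunit in brown) over all cells, gene-poor cells and gene-rich cells, with subunit medians as solid bars and the median of all 6213 genes as a dashed line. The members centre on 1.42 in all cells, 1.41 in gene-poor cells and 0.06 in gene-rich cells.

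Short telomere cells also detected fewer of the members. Of the 77 members, long telomere cells detected 73.4 ± 6.14 (SD, range 50 to 77), medium 73.5 ± 5.32 (range 56 to 77) and short 62.1 ± 11.8 (range 35 to 77). Gene-rich cells detected 76.6 ± 0.989 members and gene-poor cells 66.2 ± 8.78, and 54 of the 56 cells that held all 77 were gene-rich. Gene-poor cells detected 85.9% of the members and 62.3% of the 6213 genes on average, and gene-rich cells 99.5% and 93.3%. The members were not matched to the 6213 genes by level, on which detection depends. The smaller fall in the members is therefore not separated from their level. Over the 121 cells the number of detected members followed the number of detected genes (Pearson r 0.821, Spearman rho 0.867), to which the members themselves contribute. Both subunits were alike, at 80.6% of large and 80.9% of small subunit genes in short telomere cells and 95.2% and 95.6% in long. The members most often missed in gene-poor cells were MRPL40, detected in 27 of 53, MRPL24 in 28 and MRPS30 in 30. Fewer detected genes can come from less RNA in a cell, from poorer capture or from lower sequencing depth, which cannot be told apart here.

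Among the cells that detected a gene, the long minus short difference was smaller. Its median was 0.44 over the 76 members that at least 5 cells of each group detected, and 0.30 over all 5428 such genes. It was at least 1 for 23 members (30.3%), against 17.6% of all genes, and -1 or below for 1 member, MRPL38 (-1.10), against 6.34% of all genes. MRPS23 had the largest difference, 2.45. By subunit, 11 of 29 small and 12 of 47 large subunit genes were past 1, with medians of 0.73 and 0.27. MRPL24 was not compared, since 3 short telomere cells detected it.

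The summed TPM of the 77 genes overlapped widely between the groups. The group means were 14389 ± 4230 (SD, long), 15134 ± 4516 (medium) and 16099 ± 6325 (short), with 42.3% of long-short pairs higher on the long side. With the T/R ratio it had a Pearson r of 0.0254 and a Spearman rho of -0.0233 over 121 cells. Within groups r differed in sign, at 0.29 (long), -0.341 (medium) and -0.456 (short), and rho was 0.172, -0.18 and -0.364. The number of detected genes also had an r with the T/R ratio of differing sign, at -0.358 (long), 0.328 (medium) and 0.719 (short). In the same groups the sum had an r with detected genes of -0.757, -0.619 and -0.733. The part of gene number in the within-group values was not tested. The sum was lower in cells with more detected genes (r -0.711, rho -0.587), with 12402 ± 2122 in gene-rich and 17773 ± 5117 in gene-poor cells. Cytosolic ribosomal protein genes went the other way, with 260154 ± 32876 in gene-rich and 178026 ± 60157 in gene-poor cells (r 0.73, rho 0.703). The members therefore amounted to 4.99% ± 1.93 of the cytosolic ribosomal protein TPM in gene-rich and to 11.2% ± 4.79 in gene-poor cells. These are shares of a fixed total, so a larger share of one set lowers those of others. By group, the percentage was 7.41 ± 4.75 (long), 7.66 ± 4.11 (medium) and 9.58 ± 4.94 (short), and within gene-poor cells it was 11.7 ± 5.06 in long (n = 30) and 10.8 ± 4.83 in short (n = 12).

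**Figure D4:**
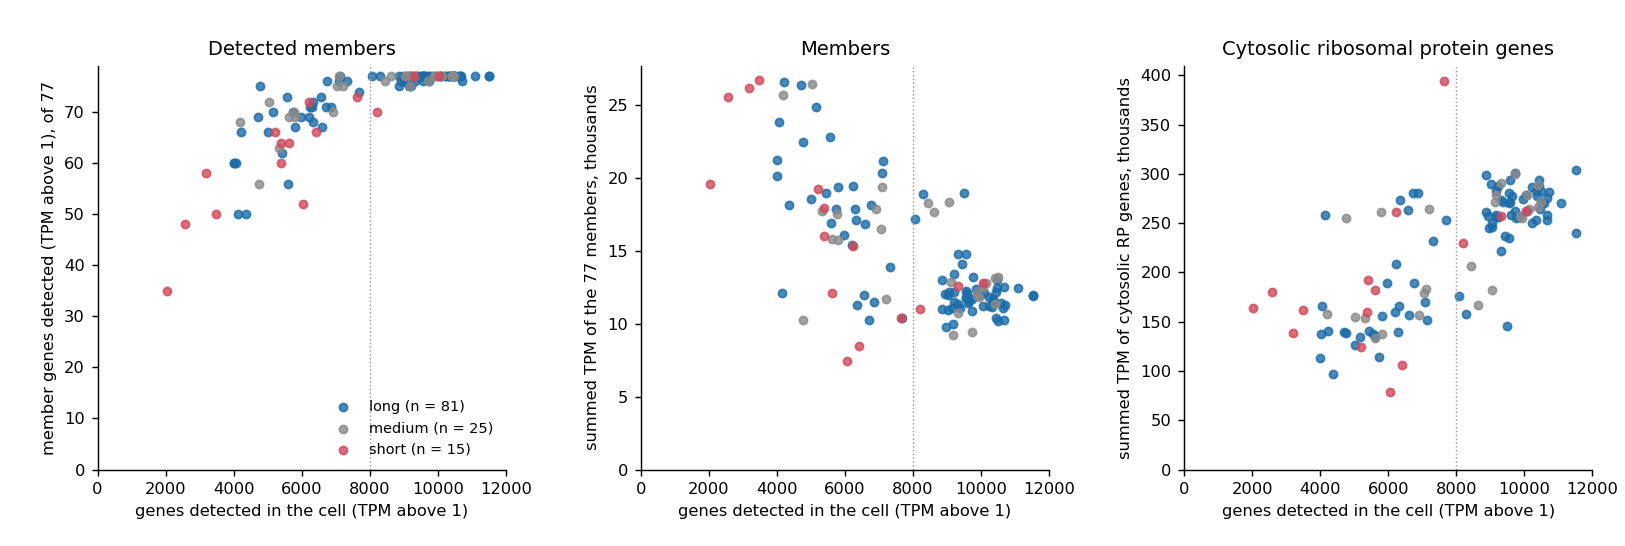
Each point is a cell, placed by its number of detected genes and coloured by telomere length group. From left to right the vertical axes show detected members of 77, the summed TPM of the members and the summed TPM of cytosolic ribosomal protein genes, and the dotted line marks 8000 genes: the left and right measures climb with detected genes (r 0.821 and 0.73) and the middle one declines (r -0.711).

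In gene-poor cells the sum came from fewer genes. The number of members needed to reach 50% of the sum was 18.4 ± 1.54 in gene-rich and 11.5 ± 3.86 in gene-poor cells, and 7.75 ± 3.31 in gene-poor short telomere cells. The largest member took 5.91% ± 1.28 of the sum in gene-rich cells and 10.5% ± 7.85 in gene-poor cells, up to 49.9% in 1 short telomere cell.

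Large and small subunit genes were balanced in most cells. The mean TPM per gene of the large subunit over that of the small was 1.02 ± 0.104 (SD, range 0.733 to 1.41) in gene-rich cells. In gene-poor cells it was 1.55 ± 1.28, with a range of 0.789 to 10.1. The group medians were 1.04 (long), 1.07 (medium) and 1.7 (short). Within gene-poor cells the medians were 1.11 in long (n = 30), 1.31 in medium (n = 11) and 1.76 in short telomere cells (n = 12), and 10 of the 12 lay above the long median, although the ranges overlapped. These 12 cells also detected fewer genes on average than the gene-poor long telomere cells, and the part of this was not tested. Within gene-rich cells the 3 short telomere cells had 0.84, 0.955 and 1.14, around the long median of 1.01. The cell with the ratio of 10.1 was a short telomere cell with 6046 detected genes, in which MRPL51 alone had 3717 TPM and 15 of 29 small subunit genes were detected. The next, at 2.68, was a long telomere cell with MRPL50 at 7148 TPM. When MRPS30 and MRPS18A were counted with the large subunit and MRPS36 was left out, the medians were 0.974 in long and 1.49 in short telomere cells. When the member of highest mean TPM was left out of each subunit, they were 0.989 and 1.49. The ratio had an r of -0.202 and a rho of -0.26 with the T/R ratio over 121 cells, and of -0.195 and -0.214 in gene-rich cells. With the number of detected genes, it had an r of -0.313 and a rho of -0.583.

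**Figure D5:**
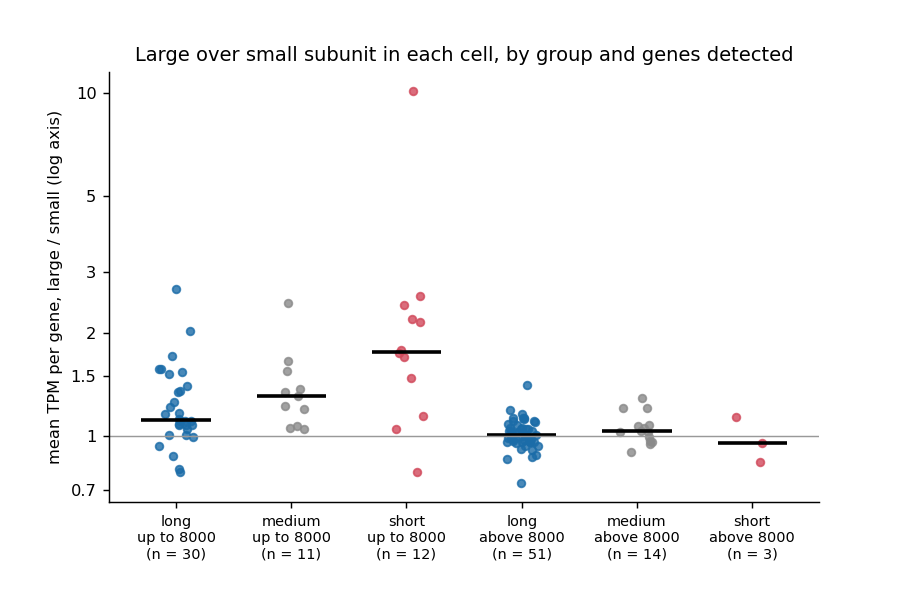
Ratio of mean TPM per gene, large over small subunit, in each cell (log axis), by telomere length group and by number of detected genes (up to or above 8000), with group medians as black bars. Gene-rich cells lie between 0.733 and 1.41, and gene-poor short telomere cells spread from 0.789 to 10.1 with a median of 1.76.

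Single members were weakly related to the T/R ratio across the 121 cells. Pearson coefficients of TPM ran from -0.264 to 0.303 with a median of 0.0135, against 0.0422 over all 6213 genes. Of the 77 members 41 were above 0 (53.2%), against 62.3% of all genes. Large subunit genes had a median of -0.0422 (20 of 48 above 0) and small subunit genes of 0.106 (21 of 29 above 0), and in gene-rich cells these medians were -0.0376 and 0.0157. By Spearman the subunit medians were 0.0353 (31 of 48 above 0) and 0.13 (22 of 29), where 81.6% of all genes were above 0. By Pearson on log2(TPM + 1) they were 0.0688 and 0.134, so the sign for the large subunit depended on the measure. The 5 highest were MRPS11 (0.303), MRPL15 (0.283), MRPS7 (0.279), MRPL4 (0.263) and MRPS30 (0.245). In gene-poor cells these 5 had r of 0.408, 0.378, 0.352, 0.378 and 0.346, and in gene-rich cells of -0.104, -0.0216, 0.0844, -0.142 and 0.115. They were picked by r over all 121 cells, which include both sets, so a high r in a set partly follows from the choice. Over all 77 members the median r was 0.0382 in gene-poor and -0.0127 in gene-rich cells. With the 2 cells of most extreme T/R ratio left out, MRPL4 had an r of 0.164 and MRPS7, which belongs to the head of the small subunit, of 0.321. The 5 lowest were MRPS17 (-0.264), MRPL41 (-0.218), MRPS25 (-0.207), MRPL21 (-0.184) and MRPL36 (-0.167). In gene-rich cells MRPS17 had 0.041 and MRPL41 had -0.0684. Cells share the amplification and the scaling to a fixed total, and the depth of each cell is not in the table, so these coefficients are descriptions of the 121 cells.

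Members of particular role did not form one pattern. MRPL12, the stalk protein that contacts translation factors and has been found to bind the mitochondrial RNA polymerase, was higher in long telomere cells by 1.53 and had an r of 0.0371 with the T/R ratio. MRPS12, at the decoding site, differed by 1.36 in all cells and by -0.26 in gene-rich cells. The 3 relatives of a single bacterial protein differed in level and in contrast: MRPS18C (mean TPM 328) by 0.61, MRPS18B (135) by 1.43 and MRPS18A (131) by 0.35. MRPS30, a large subunit protein by structure, had medians of 56.1 TPM (long), 37.5 (medium) and 0.74 (short), a difference of 2.55, and one of -0.68 in gene-rich cells. MRPS35 differed by 1.79, MRPS36 by 1.43 and MRPL47 by 1.19, and all 3 were below 0 in gene-rich cells (-0.14, -0.13 and -0.47). Sorted after the values were seen, 28 mitochondria-specific members had a median difference of 1.77 and 47 of bacterial type of 1.36, and in gene-rich cells 0.15 and 0.06.

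Members varied together about as much as other genes over all cells, and somewhat more than other genes within gene-rich and within gene-poor cells. The median Pearson r of log2(TPM + 1) over 2926 pairs of members was 0.177 in all cells, against 0.181 over all pairs of the 6213 genes and 0.473 among cytosolic ribosomal protein genes. In gene-rich cells the median was 0.098 among members, 0.0151 among all genes and 0.321 among cytosolic ribosomal protein genes. In gene-poor cells the median was 0.145 among members and 0.0928 among all genes. Within the large subunit the gene-rich median was 0.117, within the small 0.0551 and between them 0.0905. Members and cytosolic ribosomal protein genes had a median of -0.124 with each other in gene-rich cells, and 28.1% of those pairs were above 0. The members closest to the mean of all others in gene-rich cells were MRPL27 (r 0.625), MRPS7 (0.585) and MRPL12 (0.579), and the farthest were MRPS16 (-0.173), MRPS36 (-0.169) and MRPS35 (-0.163). Across gene-rich cells the coefficient of variation of TPM had a median of 45.4% over members, from 26.5% for MRPL52 to 98.1% for MRPL38, and of 64.7% over 6206 genes. The members were not matched by level to the genes of these comparisons. Neither the pair medians nor the coefficient of variation are therefore separated from level.

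Other genes of mitochondrial translation were also mostly higher in long telomere cells, and their counts stand beside 66.5% of all genes past 1 and a median of 1.40. Of 6 ribosome proteins with other symbols, 3 were higher in long telomere cells by at least 1: ICT1, a release factor built into the large subunit (2.35), CHCHD1 (1.99) and PTCD3 (1.86), a small subunit protein. DAP3 (0.65), a GTP-binding small subunit protein, and AURKAIP1 (0.42) were not, and GADD45GIP1 was at -0.27. Of 14 factors of initiation, elongation and release or their partners with a mean TPM of at least 10, 12 were past 1, with a median of 1.73. The elongation factor TSFM had 2.87, its partner TUFM 1.01 and SLIRP, an RNA-binding partner of LRPPRC and by far the highest of them (mean TPM 3543), 0.10. Of 15 assembly factors 12 were past 1 (median 1.59), and of 13 mitochondrial aminoacyl-tRNA synthetases and related enzymes 10 were (median 1.53). Cytosolic ribosomal protein genes had a median of 0.73, with 23 of 82 past 1. In gene-rich cells the medians of these lists were 0.14, 0.39, 0.18, -0.34 and 0.09, in the order given, against 0.04 for all genes.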

How the data were processed

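Poly(A) RNA of 121 single WA26 cells was sequenced by the authors (50-bp reads, per the methods). The methods name TopHat, hg19 and HTSeq counts per RefGene gene, and the submitters' notes name TopHat2, RSEM and hg19; which of them gave the deposited TPM values is not given in the sources used here. They are given to 2 decimals for 25610 genes in symbol order, with totals of 979828 to 997050 per cell; an incomplete last row was dropped, and later genes were not analysed here. The depth of each cell is not in the table, so no counting error is given. The values are scaled by length: the low end (2nd percentile above 0) was larger for transcripts of 2000 to 4000 bases than for longer ones in 121 of 121 cells (median ratio 2.17, and 0.971 after multiplying by length). T/R ratios were read from the study's table of cells.

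Differences are of mean log2(TPM + 1). The background is the 6213 genes of mean TPM 10 or more, and detected means TPM above 1. No test was run, since cells are not replicates. Full values are given for members highest or lowest by level, long minus short difference or correlation, and for 10 of particular role. The members and lists were chosen with earlier results of these data known. Calculations were tested on simulated data. Positions are from GENCODE (GRCh37) and promoter windows from RefSeq (GRCh38.p14). Python 3.11.15, numpy 2.4.6, pandas 2.3.3 and matplotlib 3.10.9 were used.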

Additional observations from a re-analysis of the deposited data

How the results depend on the processing

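No paired analysis was possible because the results come from no test and the numbers in the labels only name cells. Of 53 alternatives to the summary values, 40 moved them by less than 0.5 (log2), 0.1 (correlations), or 1.5 times (counts and ratios). The limit of 0.1 is larger than the correlations with the T/R ratio themselves, so a change of sign can lie within it. Without the 2 cells of most extreme T/R ratio, the member median went from 0.0135 to -0.0295 and the r of the summed TPM from 0.0254 to -0.0611. Keeping only gene-rich or only gene-poor cells had unlike outcomes. With only gene-rich cells, 3 of them short, the median long minus short difference of the members was 0.06 (large subunit 0.12, small -0.09). There 7 members were past 1, against 12.7% of all genes. The short over long ratio of the large/small medians was 0.946 against 1.63, and the summed TPM had an r of -0.0875 with the T/R ratio. With only gene-poor cells the median was 1.41 (large 1.31, small 1.77), and 49 members were past 1, against 51% of all genes. The ratio was then 1.58 and the r 0.0885. This split changes group sizes together with gene number, and their parts were not tested. With the 40 cells of highest against the 40 of lowest T/R ratio the median was 0.37 (large 0.29, small 0.53) against 0.46 for all genes, with 11 members past 1 against 12.9% of all genes. A pseudocount of 10 gave 0.82 (large 0.74) against 0.60 for all genes, with 32 members past 1 against 23.2% of all genes, and medians over cells gave 0.74 against 2.02 for all genes, so the members lay above the background in one setting and below it in the other. The cause was not tested. Rescaling without cytosolic ribosomal protein genes moved the median of all genes from 1.40 to 1.53 and that of the members from 1.42 to 1.52. Among 38 named members, 159 of 266 alternative differences stayed within these limits, 97 moved further and 10 turned the sign of a difference past 1. In gene-rich cells these were MRPL15 (-0.02), MRPL19 (-0.29), MRPL47 (-0.47), MRPS2 (-0.77), MRPS6 (-0.36), MRPS12 (-0.26), MRPS30 (-0.68), MRPS35 (-0.14) and MRPS36 (-0.13), and with 40 against 40 cells MRPS36 (-0.29). Leaving out a replicate was not possible with 1 sample a group, and without the depth of each cell a member listed at 0 cannot be called absent.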
